A study of Mus musculus with 9 samples.

Results

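Myelin is the lipid-rich membrane wrapped around axons, made by Schwann cells in peripheral nerves and by oligodendrocytes in the brain and spinal cord. Described here are 8 myelin genes of the mouse, of 46517 gene identifiers in the count files, chosen by name to tell the peripheral sheath from the central one. The 4 genes taken for the Schwann cell side were Pmp22, Prx, Dhh and Lgi4. The 4 genes taken for the oligodendrocyte side were Mbp, Mag, Mog and Mobp. All 8 passed the filter on low counts and were among the 17947 genes tested.

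RNA of glioblastoma tissue from mice of mixed background was sequenced in bulk, in 3 models with 3 libraries each. Each model is named in the labels for the Cre line it carries, Synapsin-cre, Nestin-creERT2 or NG2-creERTM, and the design text sets them side by side as tumours of different cells of origin. Synapsin promoters are active in neurons, Nestin promoters in neural stem and progenitor cells, and the NG2 (Cspg4) promoter in oligodendrocyte precursors and pericytes, and the creERT2 and creERTM enzymes act once tamoxifen is given. No group without a tumour was among the samples, the labels used here name no floxed allele, age, tamoxifen schedule or tumour site, and they do not say whether the 3 libraries of a model came from separate animals. The p-values therefore cover only the spread among these libraries, and part of it may be technical.

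Counts in genes ranged from 23557398 to 41099967 per library. Levels are given as CPM, which are counts put on 1 library size by TMM normalisation, and levels of different genes are set against each other only as CPM per kilobase of exon. Olig1 and Olig2, transcription factors of the oligodendrocyte lineage that gliomas commonly express, were read in all 9 libraries, from 152 CPM for Olig1 and from 39.0 CPM for Olig2. Synapsin-cre replicate 1 stood apart from the other libraries: its 10 neuron genes summed to 7283 CPM, against 80.0 and 214.8 in the other Synapsin-cre libraries, 694 to 1006 in Nestin-creERT2 and 48.7 to 219.7 in NG2-creERTM. Its 7 astrocyte genes summed to 7304 CPM, against 217 to 5596 in the other 8. Results that rest on this library are given with and without it.

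Pmp22 is a membrane protein of the compact myelin of peripheral nerve, and Prx (periaxin) links the Schwann cell membrane to its cytoskeleton. Dhh (desert hedgehog) is the hedgehog ligand that Schwann cells secrete towards the surrounding nerve sheath, and Lgi4 is a secreted protein that acts through the receptor Adam22 to let Schwann cells sort and myelinate axons. Mbp closes the cytoplasmic faces of the sheath in both nervous systems and Mag faces the axon in both, whereas Mog, on the outer face of the sheath, and Mobp are made by oligodendrocytes of the central nervous system. The sorting is not exclusive: Pmp22 is also made by many cells outside nerve, Lgi4 by some glia of the brain, and the Mbp gene also gives transcripts called golli outside myelin.

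Dhh and Lgi4 stood higher in Synapsin-cre and NG2-creERTM libraries than in Nestin-creERT2 libraries, without any overlap. Pmp22 and Prx did not separate the models. Mbp was read at 109 CPM or more in every library, while Mobp, at 239 CPM or more in 3 libraries, was near 1 CPM in 2. No member passed an adjusted p of 0.05 (edgeR quasi-likelihood test, Benjamini-Hochberg) in any of the 3 comparisons between models with all 9 libraries, and neither did any other gene, a background of 0.0% in each. At an unadjusted p under 0.05 edgeR counted 2021 genes (11.3%) for NG2-creERTM against Nestin-creERT2, 1937 (10.8%) for Synapsin-cre against Nestin-creERT2 and 2298 (12.8%) for Synapsin-cre against NG2-creERTM. Limma voom called 0, 0 and 0 (0.0%), and DESeq2 called 621, 506 and 438 (3.46, 2.82 and 2.44%). The comparisons share libraries in pairs and are not independent.

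**Figure D1:**
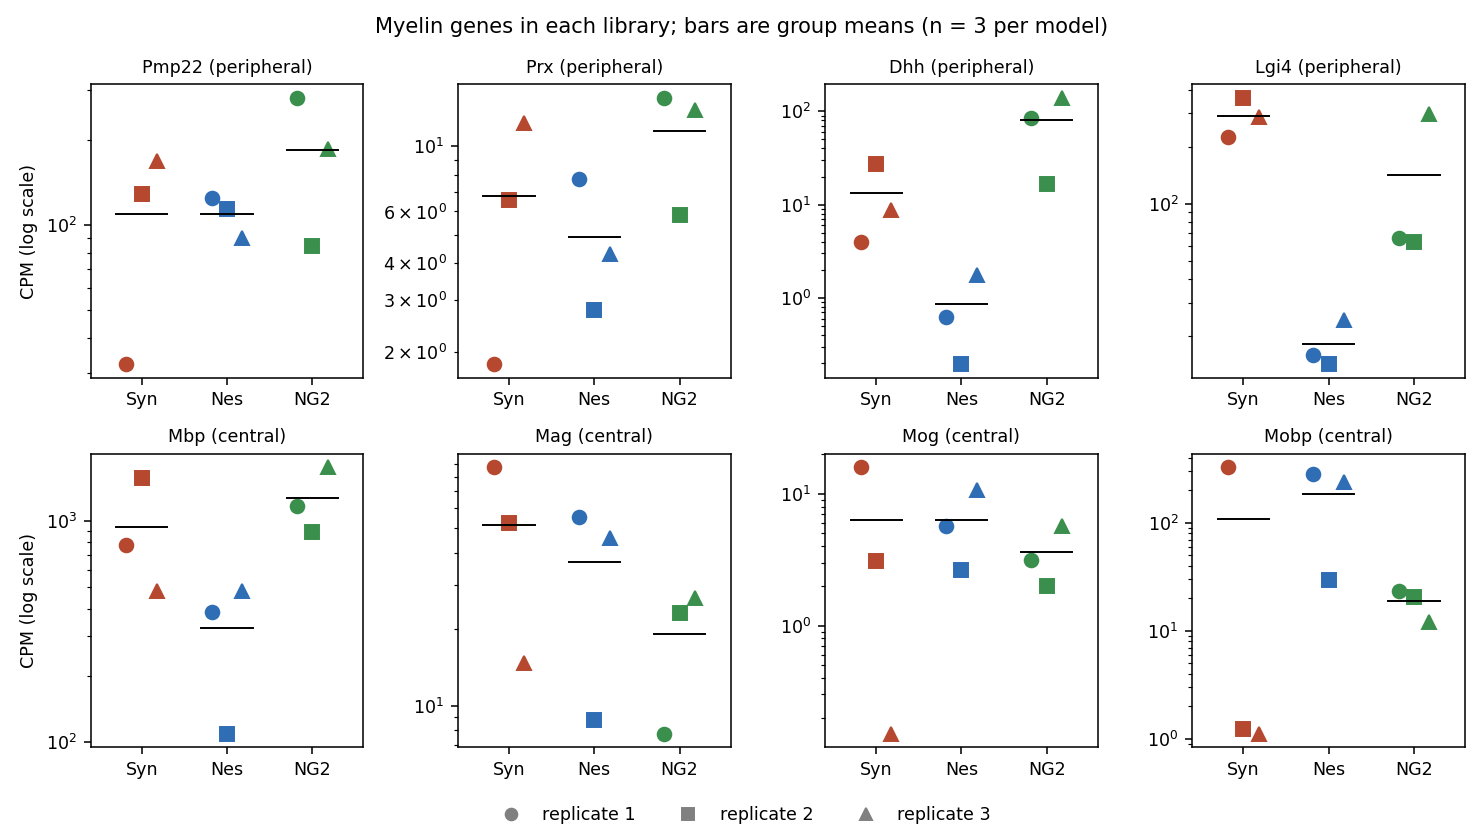
CPM on a log scale for each member, 1 panel per gene, with the 3 models on the x axis (Syn, Synapsin-cre; Nes, Nestin-creERT2; NG2, NG2-creERTM), 1 point per library and a bar at the mean of each model. The Nestin-creERT2 points for Dhh and Lgi4 lie below all points of the other models, and the Synapsin-cre points for Mobp spread from 1.11 to 327 CPM.

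Dhh varied most among the members, 719-fold between its lowest and highest library. It was at 3.94, 27.2 and 8.72 CPM in Synapsin-cre replicates 1 to 3, at 0.617, 0.194 and 1.76 CPM in Nestin-creERT2 and at 85.0, 16.7 and 140 CPM in NG2-creERTM. Every Nestin-creERT2 library was below every other library, and the Synapsin-cre and NG2-creERTM libraries overlapped. In bulk tissue, fewer cells of a type and less RNA per cell cannot be told apart. NG2-creERTM exceeded Nestin-creERT2 by 6.54 ± 1.21 (log2 fold change ± SE, n = 3 each), a 92.8-fold difference, with an adjusted p of 0.217 in edgeR. Synapsin-cre exceeded Nestin-creERT2 by 3.94 ± 1.08 (log2), with an edgeR adjusted p of 0.319. The difference of Synapsin-cre from NG2-creERTM was -2.60 ± 1.01 (log2, adjusted p = 0.364 in edgeR). Dhh rose in NG2-creERTM over Nestin-creERT2 when Synapsin-cre replicate 1 was left out, by 6.54 ± 1.08 (log2), and passed at an edgeR adjusted p of 0.0460. It passed there, too, in a fit of these models only, at an edgeR adjusted p of 0.0436, where 0.316% of genes were called higher. The lowest library, Nestin-creERT2 replicate 2, held 7 Dhh reads.

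Lgi4 stood highest in Synapsin-cre. It was at 224, 362 and 286 CPM in Synapsin-cre replicates 1 to 3, at 15.98, 14.2 and 24.2 CPM in Nestin-creERT2 and at 66.0, 62.5 and 299 CPM in NG2-creERTM. The Nestin-creERT2 libraries were again below all others, and of the NG2-creERTM libraries replicate 3 reached the Synapsin-cre levels. Synapsin-cre exceeded Nestin-creERT2 by 4.002 ± 0.66 (log2), a 16.03-fold difference, with an edgeR adjusted p of 0.163. NG2-creERTM exceeded Nestin-creERT2 by 2.97 ± 0.63 (log2, edgeR adjusted p = 0.244), and Synapsin-cre differed from NG2-creERTM by 1.03 ± 0.59 (log2, edgeR adjusted p = 0.483). With the first Synapsin-cre replicate left out, Lgi4 rose in Synapsin-cre over Nestin-creERT2 by 4.16 ± 0.68 (log2), and passed at an edgeR adjusted p of 0.0341. It passed as well without NG2-creERTM replicate 3, at 3.996 (log2) and an edgeR adjusted p of 0.0407. That fit called 2 genes in all for this comparison.

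Lgi4 lies at chr7:31059342-31070935 (mm10, plus strand), and its exons share 2059 bases with those of Fxyd3 on the opposite strand. Of the reads that Lgi4 received on its own strand, the unstranded column retained 40.8%, so its level depends on the use of strand. In the unstranded counts the 3 differences of Lgi4 kept their direction. Fxyd3, chosen after its values were seen, was itself at 0.0831 to 0.214 CPM in Nestin-creERT2. It was at 0.797 to 10.2 CPM in Synapsin-cre and at 1.32 to 6.45 CPM in NG2-creERTM, so that it, too, was lowest in Nestin-creERT2. By likeness of pattern to Lgi4 it ranked 18 among 15116 named genes.

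Pmp22 was the peripheral member with the highest level in Nestin-creERT2, at a mean of 46.6 CPM per kilobase against 3.96 for Lgi4. It was at 32.2, 129 and 168 CPM in Synapsin-cre replicates 1 to 3, at 125, 114 and 90.4 CPM in Nestin-creERT2 and at 282, 84.5 and 186 CPM in NG2-creERTM. Synapsin-cre replicate 1 was the lowest, and all 3 models overlapped. The difference of Synapsin-cre from Nestin-creERT2 was 0.00 (log2) with a 95% interval of -1.15 to 1.15, and that of NG2-creERTM from Nestin-creERT2 was 0.75 (log2) with an interval of -0.41 to 1.91. Without Synapsin-cre replicate 1 the former was 0.43 ± 0.45 (log2, edgeR adjusted p = 0.624).

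Prx was the lowest peripheral member in NG2-creERTM and Synapsin-cre, at means of 2.01 and 1.22 CPM per kilobase. It was at 1.81, 6.54 and 11.998 CPM in Synapsin-cre replicates 1 to 3, at 7.73, 2.77 and 4.29 CPM in Nestin-creERT2 and at 14.6, 5.83 and 13.3 CPM in NG2-creERTM. The models overlapped, and as for Pmp22 the lowest library was Synapsin-cre replicate 1 and the highest NG2-creERTM replicate 1. The largest difference was that of NG2-creERTM from Nestin-creERT2, 1.19 ± 0.72 (log2, edgeR adjusted p = 0.575). Among all pairs of members Pmp22 and Prx were the closest, with a root mean square difference of 0.449 between their log2 CPM after each gene was centred on its own mean over the 9 libraries. Pmp22 differed by 2.65 from Dhh and by 1.961 from Lgi4 on the same measure.

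Mbp had the highest level per kilobase of all members in 6 libraries, and Pmp22 in the other 3, which were Synapsin-cre replicate 3 and Nestin-creERT2 replicates 1 and 2. Mbp was at 777, 1551 and 479 CPM in Synapsin-cre replicates 1 to 3, at 388, 109 and 482 CPM in Nestin-creERT2 and at 1161, 892 and 1737 CPM in NG2-creERTM. NG2-creERTM lay above Nestin-creERT2 without overlap, and Synapsin-cre overlapped both. The difference of NG2-creERTM from Nestin-creERT2 was 1.95 ± 0.64 (log2), 3.87-fold, at an edgeR adjusted p of 0.344. That of Synapsin-cre from Nestin-creERT2 was 1.52 ± 0.63 (log2, edgeR adjusted p = 0.439).

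Mobp followed another order. It was at 327, 1.24 and 1.11 CPM in Synapsin-cre replicates 1 to 3, at 286, 29.7 and 239 CPM in Nestin-creERT2 and at 23.5, 20.7 and 12.04 CPM in NG2-creERTM. High values were confined to Synapsin-cre replicate 1 and Nestin-creERT2 replicates 1 and 3, and all NG2-creERTM libraries were below all Nestin-creERT2 libraries. With replicate 1 included, the fitted difference of Synapsin-cre from Nestin-creERT2 was -0.75 ± 1.67 (log2, edgeR adjusted p = 0.905). Without that library Mobp fell in Synapsin-cre relative to Nestin-creERT2 by 7.29 ± 1.05 on the log2 scale, 157-fold, and passed at an edgeR adjusted p of 0.0274. The difference of Synapsin-cre from NG2-creERTM turned from 2.55 ± 1.76 to -3.99 ± 0.89 (log2) when the library was left out, with edgeR adjusted p-values of 0.564 and 0.243. NG2-creERTM differed from Nestin-creERT2 by -3.30 ± 1.82 (log2, edgeR adjusted p = 0.538), and by -3.30 ± 0.71 without Synapsin-cre replicate 1, at an edgeR adjusted p of 0.0601.

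Mbp and Mobp diverged within single libraries. The log2 ratio of Mobp to Mbp, both as CPM per kilobase, was -0.94, -9.98 and -8.44 in Synapsin-cre replicates 1 to 3. It was -0.13, -1.57 and -0.71 in Nestin-creERT2 and -5.32, -5.12 and -6.87 in NG2-creERTM. The 3 Nestin-creERT2 libraries and Synapsin-cre replicate 1 had high ratios, and the other 5 libraries had low ones.

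Mag was at 87.0, 52.7 and 14.7 CPM in Synapsin-cre replicates 1 to 3, at 55.7, 8.76 and 46.0 CPM in Nestin-creERT2 and at 7.73, 23.2 and 26.5 CPM in NG2-creERTM. All 3 models overlapped, and the highest values were again those of Synapsin-cre replicate 1 and Nestin-creERT2 replicate 1. The largest of its 3 differences was that of Synapsin-cre from NG2-creERTM, 1.43 ± 0.80 (log2, edgeR adjusted p = 0.475). With Synapsin-cre replicate 1 left out this difference was 0.83 ± 0.81 (log2, edgeR adjusted p = 0.725), and the largest was then that of NG2-creERTM from Nestin-creERT2, -0.95 ± 0.74 (log2, edgeR adjusted p = 0.547).

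By group mean Mog was the lowest central member per kilobase in every model, at 3.73, 3.71 and 2.11 CPM per kilobase in Synapsin-cre, Nestin-creERT2 and NG2-creERTM. In Synapsin-cre this order rested on replicate 1, where Mobp was at 327 CPM. Mobp was below Mog per kilobase in Synapsin-cre replicate 2, with log2 ratios to Mbp of -9.98 and -6.66. The same held in NG2-creERTM replicate 3, with ratios of -6.87 and -5.95. Mog was at 15.8, 3.09 and 0.150 CPM in Synapsin-cre replicates 1 to 3, at 5.64, 2.63 and 10.7 CPM in Nestin-creERT2 and at 3.12, 1.99 and 5.66 CPM in NG2-creERTM. The highest and the lowest value both belonged to Synapsin-cre, and the lowest rested on 5 reads. Its differences between models were within 0.82 (log2) of 0 with SEs of 1.18 or 1.19, and the edgeR adjusted p-values were 0.812 or more. With Synapsin-cre replicate 1 left out, Synapsin-cre differed by -1.95 ± 1.11 (log2, edgeR adjusted p = 0.344) from Nestin-creERT2 and by -1.14 ± 1.08 (log2, edgeR adjusted p = 0.714) from NG2-creERTM.

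The 3 libraries with 239 CPM or more of Mobp were also those with the 3 highest sums of neuron genes, as the plot of central members beside neuron genes shows. The neuron sums were 7283 CPM in Synapsin-cre replicate 1, 1006 in Nestin-creERT2 replicate 1 and 905 in Nestin-creERT2 replicate 3. None of the 10 neuron genes was under 1 CPM in all libraries. The part of neuron-bearing tissue in the Mobp and Mog levels was not tested. Mbp had no such order: the library with the most neuron RNA held 777 CPM, less than NG2-creERTM replicate 2, with 892 CPM of Mbp and the lowest neuron sum of 48.7 CPM.

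**Figure D2:**
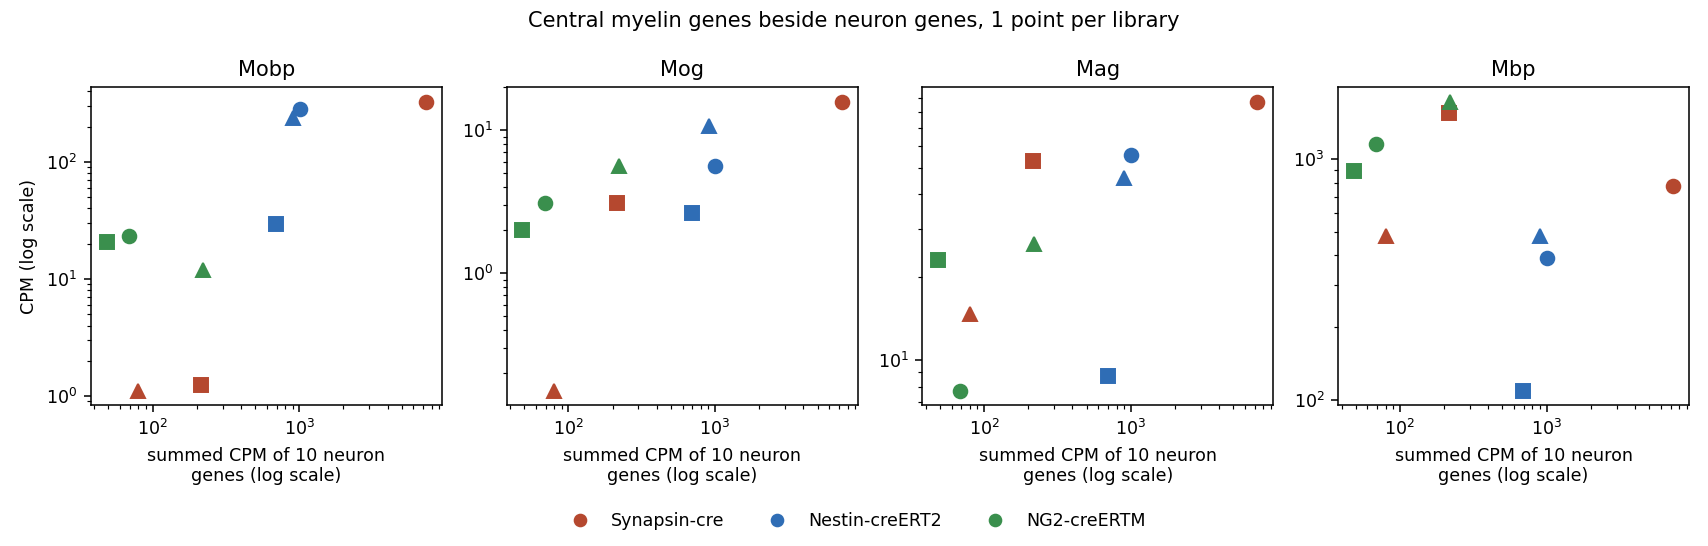
CPM of the central members (y axis, log scale) against the summed CPM of 10 neuron genes (x axis, log scale), 1 point per library, coloured by model, with circles, squares and triangles for replicates 1, 2 and 3. Mobp is at 239 CPM or more in the libraries with neuron sums of 905, 1006 and 7283 CPM, and Mbp is at 777 CPM in the library with the highest sum.

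The upstream sequences of Mobp, Mag and Mog are shown because these genes shared their highest library, Synapsin-cre replicate 1, and that of Dhh because it varied most on the other side. They are RefSeq promoter windows of GRCm38.p6, cut to end before the annotated gene start, 5′ to 3′ on the gene's strand. Capitals mark matches, on either strand, to ACAAAG, the core that Sox proteins such as Sox10 bind, to CTGGNAC, which takes in the motif of the oligodendrocyte factor Myrf, or to GTGGGNG, which takes in that of Egr2, the Schwann cell myelin regulator. These motifs were chosen after the sequences had been read, and matches do not overlap each other. The windows are Mobp at chr9:120149492-120149706 (plus strand), Mag at chr7:30914923-30915172 (minus strand), Mog at chr17:37023399-37023648 (minus strand) and Dhh at chr15:98898541-98898790 (minus strand).
Mobp: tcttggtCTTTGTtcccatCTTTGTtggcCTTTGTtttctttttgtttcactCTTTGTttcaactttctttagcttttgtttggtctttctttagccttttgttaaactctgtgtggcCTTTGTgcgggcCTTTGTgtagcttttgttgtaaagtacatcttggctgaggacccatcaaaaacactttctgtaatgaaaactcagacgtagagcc
Mag: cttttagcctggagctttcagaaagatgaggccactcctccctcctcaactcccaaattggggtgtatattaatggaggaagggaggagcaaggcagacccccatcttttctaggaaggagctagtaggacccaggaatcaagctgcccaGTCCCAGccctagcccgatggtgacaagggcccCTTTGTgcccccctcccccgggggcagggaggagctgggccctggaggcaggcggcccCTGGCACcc
Mog: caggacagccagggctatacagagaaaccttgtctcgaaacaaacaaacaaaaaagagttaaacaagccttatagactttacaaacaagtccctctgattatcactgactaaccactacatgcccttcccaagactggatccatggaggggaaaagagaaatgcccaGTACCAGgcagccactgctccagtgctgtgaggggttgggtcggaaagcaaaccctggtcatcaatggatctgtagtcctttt
Dhh: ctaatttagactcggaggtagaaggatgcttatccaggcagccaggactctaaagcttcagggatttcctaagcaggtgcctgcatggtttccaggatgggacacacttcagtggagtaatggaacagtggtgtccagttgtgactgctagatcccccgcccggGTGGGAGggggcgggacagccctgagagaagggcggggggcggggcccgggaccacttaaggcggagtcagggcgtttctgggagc
The Mobp window of 215 bases held 6 matches to ACAAAG, all read as its reverse complement CTTTGT. Of 32817 windows of that length 14.5% held at least 1, and only that of Mobp held 6. Because the motifs were chosen after the sequences had been read, such shares describe the windows and test nothing. The Mag window held 2 matches to CTGGNAC, a number reached by 1.58% of windows of 250 bases, and 1 to ACAAAG. The Mog window held 1 match to CTGGNAC, a motif found in 16.1% of windows, and the Dhh window 1 to GTGGGNG, found in 28.1%. A match describes letters and not a bound site. Where a pattern leaves base N open, a match need not be the Myrf or Egr2 motif itself. Of the other members, the Prx window held 1 match to GTGGGNG and the Pmp22 window none to any of the 3 motifs.

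Counted by overlap, 2 of 4 peripheral members (Dhh and Lgi4) and 1 of 4 central members (Mbp) lay wholly above Nestin-creERT2 in NG2-creERTM, where 11.0% of all genes tested did. Mobp alone lay wholly below, as did 14.2% of genes tested. In Synapsin-cre, Dhh and Lgi4 lay wholly above Nestin-creERT2, where 8.46% of genes did, and no member lay wholly below, where 6.26% did. Without Synapsin-cre replicate 1 the count above was 3 of 4 peripheral members (Pmp22, Dhh and Lgi4) against 19.2% of genes, and Mobp lay wholly below, with 21.0% of genes. No member separated Synapsin-cre from NG2-creERTM, where 8.04% of genes lay wholly above and 5.76% wholly below. With Synapsin-cre replicate 1 left out Mobp lay below NG2-creERTM, with 13.1% of genes, and no member above, where 13.5% did.

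By the test, without Synapsin-cre replicate 1, Dhh was the 1 member called for NG2-creERTM against Nestin-creERT2, where edgeR called 0.173% of genes higher and 0.498% lower. In Synapsin-cre against Nestin-creERT2 Lgi4 was called higher, with 0.406% of genes, and Mobp lower, with 1.07%. None was called for Synapsin-cre against NG2-creERTM, where edgeR called 1 gene higher, 0.00541%, and 0 lower, 0.0%. For the peripheral members the median log2 fold change with all 9 libraries was 2.08 for NG2-creERTM and 2.20 for Synapsin-cre against Nestin-creERT2, beside medians of 0.02 and 0.13 over all genes tested. For the central members these medians were -0.88 and 0.25, and the second was -1.04 without Synapsin-cre replicate 1.

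**Figure D3:**
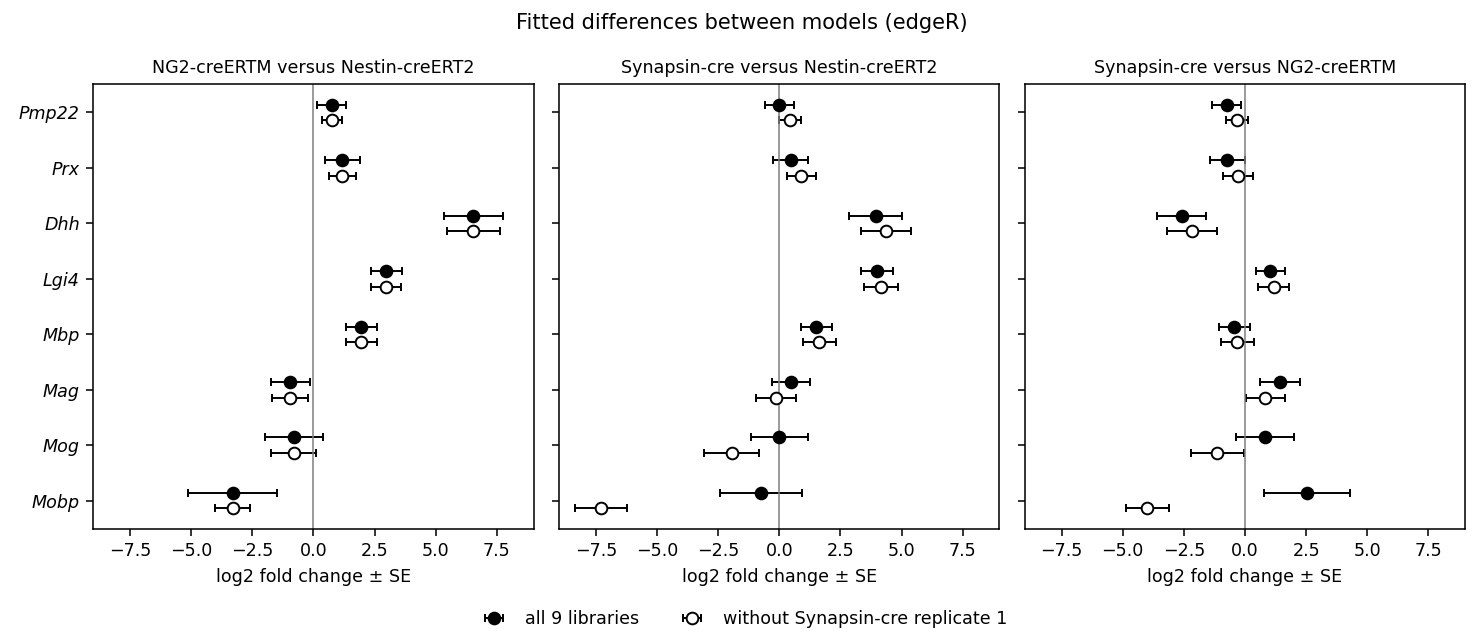
Fitted log2 fold changes (x axis) with SE bars for the 8 members in the 3 comparisons, from edgeR with all 9 libraries (filled) and without Synapsin-cre replicate 1 (open). Removing that library moves Mobp from -0.75 to -7.29 for Synapsin-cre against Nestin-creERT2 and leaves Dhh at 6.54 for NG2-creERTM against Nestin-creERT2.

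As CPM per kilobase, the 4 peripheral members summed to 44.9 to 57.9 in Nestin-creERT2, 63.7 to 141 in Synapsin-cre and 54.4 to 178 in NG2-creERTM. Set against the sum of Mag, Mog and Mobp, their log2 ratio was -0.30, 3.24 and 5.16 in Synapsin-cre replicates 1 to 3. It was -0.02, 2.69 and -0.22 in Nestin-creERT2 and 4.45, 2.46 and 3.94 in NG2-creERTM. Central members without Mbp thus equalled or slightly exceeded the peripheral ones in the same 3 libraries that held most neuron RNA. The peripheral sum was mostly Pmp22 in Nestin-creERT2, at a mean of 46.6 CPM per kilobase against 3.96 for Lgi4, the next highest. The means of Pmp22 and Lgi4 were 78.3 and 31.1 in NG2-creERTM and 46.6 and 63.4 in Synapsin-cre. In Nestin-creERT2 the ratio thus largely set Pmp22, which many cells outside nerve also make, against these central members.

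The label of peripheral myelin was checked against further markers. Pmp2, the fatty acid binding protein of peripheral myelin, was under 1 CPM in all 9 libraries. Among the 16 other peripheral genes on the list it was the 1 gene so low, and the rest reached 1 CPM in at least 1 library. Pmp2 marks myelinating Schwann cells, so the label does not hold for these libraries by all its markers. The term peripheral is used here only for the 4 genes named at the start.

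Values follow for 3 of the other Schwann cell genes on the list. Erbb3, the neuregulin receptor of Schwann cells that precursors of oligodendrocytes and melanocytes also use, was at 79.0, 570 and 302 CPM in Synapsin-cre, at 2.85, 2.08 and 8.08 CPM in Nestin-creERT2 and at 446, 143 and 874 CPM in NG2-creERTM. Foxd3, a transcription factor of the neural crest and its glia, was at 38.1, 25.0 and 72.7 CPM in Synapsin-cre, at 0.0588, 0.277 and 0.143 CPM in Nestin-creERT2 and at 14.4, 18.2 and 57.2 CPM in NG2-creERTM. For both, Nestin-creERT2 lay far below the other models. Foxd3 exceeded Nestin-creERT2 by 8.11 ± 0.91 (log2) in Synapsin-cre and by 7.51 ± 0.89 in NG2-creERTM, with edgeR adjusted p-values of 0.118 and 0.102, which became 0.0198 and 0.0292 without Synapsin-cre replicate 1. Gfra3, a receptor subunit of Schwann cell precursors, was at 4.61, 0.288 and 19.1 CPM in NG2-creERTM and at 0.331 CPM or less in the other 6 libraries.

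Of the 16 other peripheral genes on the list, 15 were tested and 0 passed in any of the 3 comparisons in the fit of all 9 libraries. In NG2-creERTM against Nestin-creERT2, 12 were above 0 and 3 below, with a median of 2.92 (log2). In Synapsin-cre against Nestin-creERT2, 12 were above 0 and 3 below, with a median of 1.43. When Synapsin-cre replicate 1 was left out, 3 of 15 rose in each of these comparisons, Erbb3 and Foxd3 among them, and 0 fell. Over all genes edgeR then called 0.173% higher and 0.498% lower in NG2-creERTM, and 0.406% higher and 1.07% lower in Synapsin-cre. Dct and Pmel are genes of melanocytes, which also arise from the neural crest. Dct was highest in NG2-creERTM, at 13.7, 12.4 and 91.0 CPM against 0.353 to 2.98 CPM in the other 6. Pmel was at 162, 28.2 and 83.9 CPM in NG2-creERTM and overlapped Synapsin-cre, whose replicate 2 was at 78.1 CPM. The 5 melanocyte genes summed to 59.3 to 205 CPM in NG2-creERTM, 20.6 to 107 in Synapsin-cre and 6.23 to 13.7 in Nestin-creERT2, and of these Tyr and Mlana stayed under 1 CPM in all 9 libraries. The 5 fibroblast genes summed to 98.9 to 805, 120 to 142 and 11.7 to 42.2 CPM in the same order, so that they, too, were lowest in Nestin-creERT2. Their part in the levels of Dhh and Lgi4 was not tested.

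Sox10, the transcription factor that both myelinating lineages require, was at 145, 921 and 1090 CPM in Synapsin-cre, at 25.7, 72.2 and 380 CPM in Nestin-creERT2 and at 975, 965 and 931 CPM in NG2-creERTM. It was lowest in a Nestin-creERT2 library, and NG2-creERTM lay wholly above Nestin-creERT2. Of the 9 genes of both sheaths, Sox10 among them, 4 lay wholly above in this way, beside 11.0% of genes tested. None, 0 of 9, lay wholly below, beside 14.2%. For Sox10 the difference of NG2-creERTM from Nestin-creERT2 was 2.59 ± 0.99 (log2, edgeR adjusted p = 0.402). Of 9 genes of both sheaths 8 were above 0 in NG2-creERTM against Nestin-creERT2, with a median of 1.92 (log2), and 6 were above 0 in Synapsin-cre against Nestin-creERT2, with a median of 0.75 (log2). In the fits of 3 models 0 of 9 passed in any comparison, with or without Synapsin-cre replicate 1.

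Cldn11, the tight junction protein of central myelin, was at 70.9, 657 and 667 CPM in Synapsin-cre, at 68.1, 130 and 80.0 CPM in Nestin-creERT2 and at 149, 1764 and 732 CPM in NG2-creERTM. Myrf, the transcription factor that switches on central myelin genes, was at 55.5, 171 and 92.6 CPM, at 31.2, 8.28 and 37.0 CPM and at 50.1, 72.6 and 106 CPM in the same order of models. In both, every Nestin-creERT2 library was below every NG2-creERTM library. Of the 12 genes on this list 3 lay wholly above Nestin-creERT2 in NG2-creERTM, beside 11.0% of genes tested. Wholly below lay 1 of the 12, beside 14.2% of genes tested. Ermn and Hapln2, proteins of mature oligodendrocytes and of the nodes of central axons, were chosen after their values were seen. Ermn was at 20.1 CPM in Synapsin-cre replicate 1, at 24.1 and 20.3 CPM in Nestin-creERT2 replicates 1 and 3, and at 0.150 to 4.08 CPM in the other 6, and Hapln2 at 18.1, 7.93 and 18.3 CPM against 0.842 to 1.52 CPM. For Ermn and Hapln2 these are the libraries in which Mobp was high. Of the 12 genes on the list all were tested, 7 were above 0 in NG2-creERTM against Nestin-creERT2 with a median of 0.27 (log2), and 0 passed in the fits of 3 models, with or without Synapsin-cre replicate 1. In a fit of Synapsin-cre and Nestin-creERT2 alone that left out this replicate, 2 of 12 rose in Synapsin-cre, Cldn11 and Opalin, both by 2.83 (log2, SEs 0.39 and 0.51, edgeR adjusted p = 0.0264 and 0.0428). Of 17797 genes tested in that fit, edgeR called 126 higher and 305 lower. Of the 5 precursor genes, 4 were below 0 in Synapsin-cre against Nestin-creERT2, with a median of -1.32 (log2), and 0 passed.

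**Figure D4:**
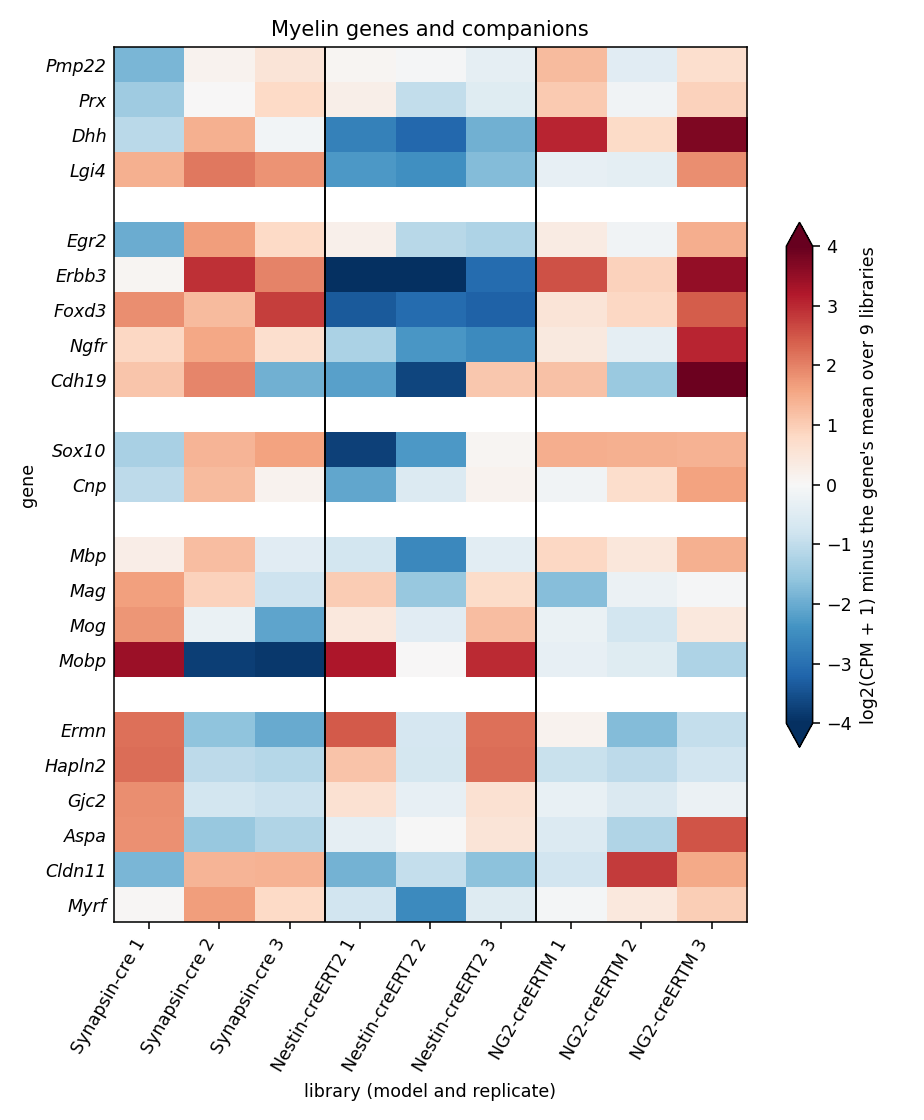
Colour gives log2(CPM + 1) minus the gene's mean over the 9 libraries (rows, genes; columns, libraries by model; values beyond 4 in either direction take the end colour). Blocks from top to bottom are the peripheral members, other Schwann cell genes, genes of both sheaths, the central members and other oligodendrocyte genes. Mobp, Ermn and Hapln2 are red in Synapsin-cre 1 and Nestin-creERT2 1 and 3, whereas Dhh, Lgi4, Erbb3 and Foxd3 are blue in all 3 Nestin-creERT2 libraries.

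The pathways around the members were taken from lists. Of 13 hedgehog genes other than Dhh all were tested and 0 passed in any comparison, with a median of -0.27 (log2) in NG2-creERTM and 0.15 in Synapsin-cre against Nestin-creERT2. Shh, the ligand of the developing brain, was at 6.46, 2.38 and 0.858 CPM in Nestin-creERT2, where Dhh was lowest, and at 0.120, 0 and 0.223 CPM in NG2-creERTM, where Dhh was highest. In Synapsin-cre it was at 3.72, 0.0828 and 0 CPM. Gli1 and Ptch1, target genes of the pathway that were chosen after their values were seen, are given by level. Gli1 was at 4.47, 0.248 and 0.962 CPM in Synapsin-cre and under 1 CPM in the other 6 libraries, and Ptch1 was between 63.5 and 160 CPM in all 9. Gas1, a coreceptor of hedgehog ligands, differed from Nestin-creERT2 by -1.76 ± 0.47 (log2, edgeR adjusted p = 0.318) in Synapsin-cre and by -0.68 ± 0.46 (adjusted p = 0.613) in NG2-creERTM. Cdon, another coreceptor, differed from Nestin-creERT2 by -1.56 ± 0.57 (log2, edgeR adjusted p = 0.399) in Synapsin-cre and by -1.67 ± 0.57 (adjusted p = 0.362) in NG2-creERTM.

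Of 6 genes for other Lgi ligands and their receptors, 0 passed in the fit of all 9 libraries. Lgi1, the neuronal relative of Lgi4, was at 35.5, 0.414 and 0.180 CPM in Synapsin-cre, at 26.3, 22.1 and 15.7 CPM in Nestin-creERT2 and at 0.869, 1.99 and 1.79 CPM in NG2-creERTM. Lgi1 fell, once Synapsin-cre replicate 1 was left out, in Synapsin-cre and in NG2-creERTM relative to Nestin-creERT2, by 6.15 ± 0.71 and 3.79 ± 0.52 on the log2 scale, with edgeR adjusted p-values of 0.0205 and 0.0391. It was the 1 gene of the 6 to pass in either, where edgeR called 1.07% and 0.498% of all genes lower. Adam22, the receptor of Lgi4, chosen after its values were seen, was between 53.4 and 172 CPM in all 9 libraries. Adam23, a related receptor, was at 340, 56.2 and 306 CPM in NG2-creERTM against 47.6 to 102 CPM in the other 6, a difference of 2.13 ± 0.57 (log2) from Nestin-creERT2 at an edgeR adjusted p of 0.304.

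Emp1, Emp2 and Emp3 belong to the same membrane protein family as Pmp22, and 0 of the 3 passed in any comparison in the fit of all 9 libraries. In a fit of NG2-creERTM and Nestin-creERT2 alone, 1 of the 3 rose in NG2-creERTM, Emp3, by 2.14 ± 0.37 (log2, edgeR adjusted p = 0.0445). That fit called 0.316% of genes higher. Emp3 was at 15.4, 29.9 and 76.7 CPM in Synapsin-cre, at 19.9, 10.3 and 10.7 CPM in Nestin-creERT2 and at 75.0, 44.1 and 61.1 CPM in NG2-creERTM. Emp2 was at 13.9, 2.04 and 17.7 CPM, at 42.0, 56.4 and 90.2 CPM and at 34.4, 24.0 and 15.4 CPM in the same order. Emp1 was at 170 to 288 CPM in NG2-creERTM and at 21.2 to 91.2 CPM in Nestin-creERT2. NG2-creERTM thus lay wholly above Nestin-creERT2 for Emp1 and Emp3, as for 11.0% of genes tested. For Emp2 it lay wholly below, as for 14.2% of genes, and for Pmp22 itself the models overlapped.

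Genes with the most similar patterns were sought among 15116 named genes, by the root mean square difference of centred log2 CPM over the 9 libraries, given as a description. For Dhh the nearest genes included Erbb3 (1.03) and Pmel (1.09), where the median gene differed from Dhh by 2.97. For Lgi4 they were Fxyd7 (0.65), Gas7 (0.67) and Trpc5os (0.70). Fxyd7, a regulator of the sodium pump, lies 7874 bases from Lgi4 on the opposite strand and was at 8.94, 28.5 and 34.8 CPM in Synapsin-cre, at 1.85, 0.804 and 2.79 CPM in Nestin-creERT2 and at 6.44, 3.77 and 58.6 CPM in NG2-creERTM.

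For Pmp22 the nearest genes were Maged2, Antxr1 and Sec24d, at 0.28 to 0.29, and for Prx they were Calu (0.18), BB557941 (0.31) and Rad18 (0.33). Calu, a calcium-binding protein of the secretory pathway, was at 151, 479 and 943 CPM in Synapsin-cre, at 512, 297 and 342 CPM in Nestin-creERT2 and at 1314, 440 and 1086 CPM in NG2-creERTM. None of these 6 was on a myelin list. For Mbp they were Mitf (0.48), Lad1 (0.49) and Mmp28 (0.50), of which Mitf, the regulator of melanocytes, was at 14.8 to 26.0 CPM in Synapsin-cre, 5.07 to 10.4 in Nestin-creERT2 and 17.6 to 28.8 in NG2-creERTM.

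For Mag the nearest genes were Adamtsl4 (0.43), Ank3 (0.48) and Nfasc (0.51). Ank3 and Nfasc encode proteins that assemble the nodes and initial segments of axons, and Ank3 was at 622 CPM in Synapsin-cre replicate 1 against 37.7 to 242 CPM elsewhere. For Mog they were Mapk4 (0.38), Fgf1 (0.52) and Esrrg (0.57), and for Mobp they were Plin4 (0.94), Vstm2a (1.08) and Arpp21 (1.10). Arpp21, a gene of forebrain neurons, was at 268, 0.772 and 1.56 CPM in Synapsin-cre, at 39.0, 45.5 and 82.7 CPM in Nestin-creERT2 and at 5.93, 7.72 and 11.4 CPM in NG2-creERTM. Among the members themselves Dhh and Mobp were the farthest apart, at 5.02, and Mbp differed by 3.42 from Mobp and by 1.24 from Lgi4.

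In the annotation (GENCODE vM21, mm10) Pmp22 lies at chr11:63128982-63159547 on the plus strand, Dhh at chr15:98891152-98898540 on the minus strand and Mobp at chr9:120149707-120181484 on the plus strand. Mog lies at chr17:37010743-37023398 on the minus strand, and Mbp on chromosome 18. Prx (chr7:27499324-27520214, plus strand), Mag (chr7:30899176-30914873, minus strand) and Lgi4 share chromosome 7, with 144468 bases between Mag and Lgi4. Mag and Lgi4 differed by 1.92 in centred log2 CPM, more than the 1.39 between Mag and Mbp on another chromosome. Dhh shares 546 exon bases with Rhebl1 on the same strand, which could make some Dhh reads ambiguous, and Prx shares 300 with an antisense gene.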

How the data were processed

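The authors deposited 1 table of read counts per library, with a row per gene. STAR, HTSeq and the mouse build mm10 are named, without versions, per the submitters' processing notes. The annotation release is not given in the sources used here. Per the labels, total RNA was extracted with a Qiagen kit and libraries followed Illumina's protocol.

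The fourth column, 1 of 2 strand-specific columns, was used, since the other strand held 3.25 to 3.64% of reads in genes. The 4 summary lines were left out. Reads counted in no gene made up 17.9 to 27.3% of a library. Of 46517 identifiers 46005 matched GENCODE vM21 and gave symbols and coordinates.

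CPM, and a test of the 3 models in all 9 libraries, were computed in edgeR 4.0.16 (R 4.3.3): TMM, filterByExpr by model, quasi-likelihood fit, 2-sided, Benjamini-Hochberg over 17947 genes, threshold 0.05. Intervals are 1.96 SE either side, a normal quantile, and so are narrower than 95% intervals from the quasi-likelihood test with so few libraries. Each gene list gave up to 4 members with the smallest p, and each member the 3 most similar genes (log2 CPM, prior count 2). The 8 members and 15 lists were chosen with earlier results of these data known. Alternatives were other size factors and filters, limma 3.58.1 voom, DESeq2 1.42.0, unstranded counts, fits of 2 models and fits without each library. The fit of 2 models without Synapsin-cre replicate 1 was added after the data were seen. The edgeR fit was tested on simulated data. Some genes of the lists are not reported here by name.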

Additional observations from a re-analysis of the deposited data

Results flagged for a closer look

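Mog had reads on the strand that was not counted. Over all libraries 310 such reads stood beside 1618 counted ones, 16.1% of its reads, whereas the libraries as a whole held 3.25 to 3.64% of reads on that strand. Mog was singled out because this signal lies outside the column that gave the results. The other-strand reads numbered 60, 81 and 53 in Nestin-creERT2 replicates 1 to 3, 64 in NG2-creERTM replicate 2 and 27 or fewer in each of the other 5 libraries. The annotation places a small RNA gene, Gm22388, on the opposite strand within Mog, with 0 shared exon bases. Zfp57, also on the opposite strand and chosen after its values were seen, lies 107 bases from Mog. Its level was 35.3, 75.6 and 57.6 CPM in Nestin-creERT2 and 17.0, 58.7 and 8.14 CPM in NG2-creERTM. In Synapsin-cre it was 19.3, 34.2 and 31.2 CPM. The part of Zfp57 in these reads was not tested. For Mag, Mobp and Mbp the share of reads on the other strand was 0.0466, 0.0988 and 0.0681%.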

How the results depend on the processing

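Of 24 differences (8 members in 3 comparisons), 18 kept their direction in every alternative run and 6 reversed in some. No paired analysis was possible because replicate numbers were given in accession order and pair no samples. The genes called, 0 in each comparison with all 9 libraries, became 12, 12 and 0 without a filter, 621, 506 and 438 with DESeq2 and 237, 5 and 0 in fits of 2 models, for NG2-creERTM against Nestin-creERT2, Synapsin-cre against Nestin-creERT2 and Synapsin-cre against NG2-creERTM. Unstranded counts called 1 gene in the second. Leaving out 1 library gave 0 to 124, 0 to 273 and 0 to 1, with the highest count in each without Synapsin-cre replicate 1. Fits of 2 models without that library called 431 and 1 for the comparisons that involve Synapsin-cre. Of the 24 differences, 5 passed in some alternative, namely Dhh and Lgi4 against Nestin-creERT2, in both other models, and Mobp in Synapsin-cre against Nestin-creERT2. DESeq2 called the first 4 of them, and the Lgi4 difference of Synapsin-cre also passed with no filter (3.88 log2, edgeR adjusted p = 0.0474). Over all alternatives the adjusted p of Dhh in NG2-creERTM ranged from 2.2e-08 to 0.656, that of Lgi4 in Synapsin-cre from 5.3e-07 to 0.628 and that of Mobp in Synapsin-cre from 0.0274 to 0.976.

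Reversals were as follows, all in log2. Pmp22 in Synapsin-cre against Nestin-creERT2, at 0.00, became -0.0096 with relative log expression and DESeq2, -0.065 with upper quartile scaling, -0.11 with no filter, -0.28 with voom, -0.026 with unstranded counts and -0.0039 with 2 models, and ranged from -0.48 to 0.43 over the fits without 1 library. Mog in the same comparison, at 0.01, became -0.018 with relative log expression, -0.017 with DESeq2, -0.039 with upper quartile scaling, -0.036 with 2 models, -0.15 with no filter, -1.54 with voom, -0.25 with unstranded counts and -1.94 with 2 models without Synapsin-cre replicate 1, and ranged from -1.95 to 0.61 over the fits without 1 library. Mag there became -0.12 without Synapsin-cre replicate 1, in 3 models or 2, within a range of -0.12 to 0.86, and Prx became -0.27 without Synapsin-cre replicate 3, within -0.27 to 0.92. In Synapsin-cre against NG2-creERTM, Mog became -0.81 with voom and -1.18 with 2 models without Synapsin-cre replicate 1, and ranged from -1.14 to 1.32 over the fits without 1 library. Mobp there became -1.50 with voom and -4.01 with 2 models without that replicate, and ranged from -3.99 to 3.04. The cause was not tested. Mog, with 5 reads in 1 library, and Dhh, with 7, are the members whose depth limits a fold change most.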
